A study of Arabidopsis thaliana with 24 samples.

Results

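A set of 161 probe sets, of 22746 that were tested, had a higher signal in wild type roots without phosphate (Pi) than with it, while the signal in wild type shoots changed little or fell. A probe set is the group of oligonucleotides that reads 1 transcript on the array. Members were chosen on group means of the log2 signal, in 3 steps: the Pi-starved minus the Pi-sufficient root mean of the wild type exceeded 1, the same difference in shoots was below 0.5, and the phr1 phl1 minus the phr1 root mean was not below -1. All 3 differences are therefore given below as descriptions, without a test. Of the 161 members, 83 were matched to a single gene, making 82 genes because AT5G44820 is read by 2 probe sets, 2 were matched to several genes and 76 to none. The unmatched members are counted and not named.

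Plants that lack Pi raise the uptake, recycling and saving of phosphate, and their roots change shape, with more and longer root hairs and a different balance of primary and lateral growth. Many of the genes involved are activated by PHR1 and by its relative PHL1, which are MYB transcription factors of the same family.

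The study grew Arabidopsis thaliana plants for 7 days on solid medium and hybridised RNA from shoots and roots to Affymetrix ATH1 arrays, 24 arrays in 8 groups of 3. The groups were shoots and roots labelled phr1 phl1 at -Pi (no added Pi), shoots and roots labelled phr1 at -Pi, and wild type shoots and roots at -Pi and at +Pi (2 mM). All groups had sucrose in the medium and were of the Columbia background, and the phl1 mutation came from a single T-DNA line. The arrays hold no mutant sample at +Pi, so mutant roots at -Pi are set against wild type roots at either Pi level. Each array holds RNA from whole shoots or whole roots, where fewer cells of a type and less RNA per cell cannot be told apart.

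The arrays were alike in overall signal, with medians between 5.12 and 5.40 and correlations from 0.968 to 0.994 with the others of their group. PHL1 signal was 7.06 to 9.31 in the 6 arrays labelled phr1 phl1 and 4.34 to 6.06 in the other 18. A probe set outside the disrupted part of a gene does not check a label, and where this one lies is not known here, so these are called the arrays labelled phr1 phl1. No probe set was matched to PHR1. Of the 12 leaf markers 1 was matched, RCA, the activase of the carbon-fixing enzyme Rubisco, and its signal was 8.09 to 8.85 in the roots labelled phr1 phl1, 6.71 to 7.18 in phr1 roots, 6.33 to 6.65 in wild type roots at -Pi and 6.46 to 7.75 in wild type roots at +Pi, against 12.3 to 12.9 in the 12 shoot arrays. Of the 12 root markers 3 were matched, the beta-glucosidase PYK10 (BGLU23) and the root hair expansins EXPA7 and EXPA18, and their mean signal was 8.57 to 10.2 in root arrays and 6.28 to 7.18 in shoot arrays. EXPA18 is itself a member.

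The rises that chose the members were moderate. The median Pi-starved minus Pi-sufficient difference in wild type roots was 1.26 on the log2 scale, or 2.39-fold, and the largest was 2.35, or 5.09-fold. Only 6 members exceeded 2, and 124 lay below 1.5. Another 573 probe sets had a root difference above 1 together with a shoot difference of 0.5 or more, and 19 met the root and shoot limits but had a phr1 phl1 minus phr1 root difference below -1. The wild type root arrays at +Pi were the most spread, with a median SD of the members of 0.31. It was 0.17 in wild type roots at -Pi, 0.21 in phr1 and 0.20 in phr1 phl1. Without replicate 3 of wild type roots at +Pi, 122 of the 161 members still met the rule.

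**Figure D1:**
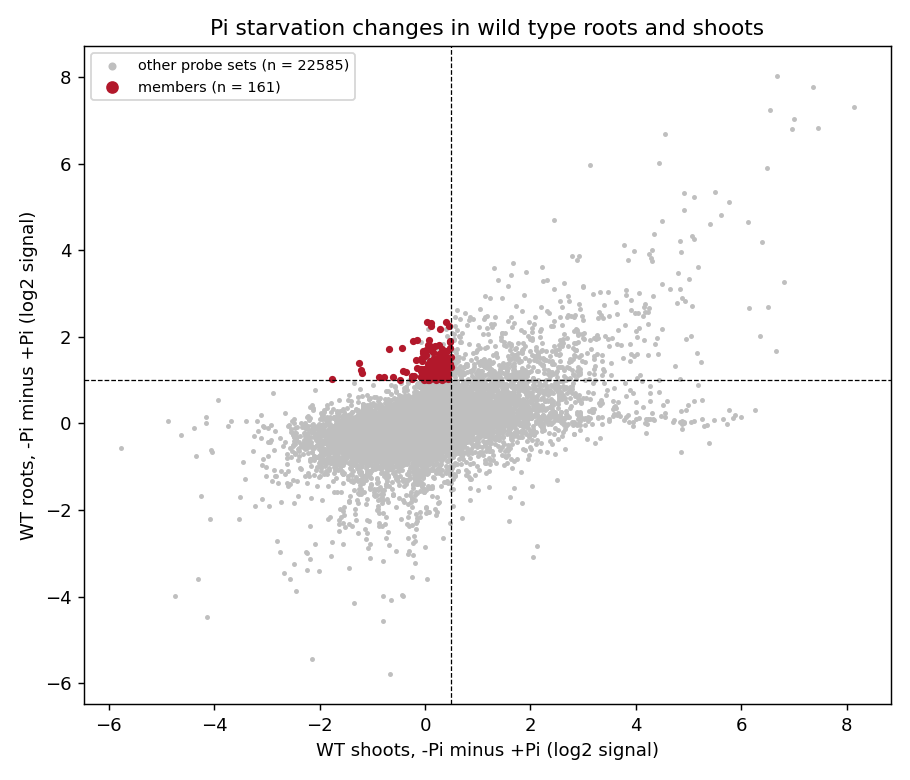
Change in signal (log2) between -Pi and +Pi for each probe set, in wild type shoots (horizontal axis) and wild type roots (vertical axis), with the 161 members in red and the others in grey. Dashed lines are the limits of 0.5 in shoots and 1 in roots. The members fill the upper left field, mostly close to the root limit.

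Probe sets just outside each limit lay close to the members just inside it. CBL6, AT3G27270 and AT5G54700 had root rises of 1.005, 1.005 and 1.007, while AT2G27180, AT2G19060 and AT2G38465 lay just outside at 0.998, 0.994 and 0.991. At the shoot limit, CSLC12 and AT5G47635 were inside at 0.49 and 0.48, an unmatched member at 0.49 lay between them, and AT5G59530 was outside at 0.53, after 2 unmatched probe sets at 0.51 and 0.53. At the limit between the mutants, EXPA18 and RAP2.11 were inside at -0.92 with an unmatched member, and AT3G01730 and AT4G09100 were outside at -1.03 and -1.04, with an unmatched probe set at -1.02.

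At -Pi most members were higher in roots than in shoots, which the rule favours in the wild type. Many had a low shoot signal. At -Pi the median member signal was 6.45 in wild type roots and 4.19 in wild type shoots, where 93 of the 161 had a mean below 4.5 at both Pi levels, against 36.1% of all probe sets. In 77 members (47.8%) every root array lay above every shoot array, against 10.9% of all probe sets, and in 9 (5.59%) every shoot array lay above every root array, against 9.07%. In the arrays labelled phr1 phl1, 96 members were higher in roots than in shoots at -Pi (limma, more than 2-fold and adjusted p under 0.05), against 12.5% of all probe sets, and 15 were lower, against 11.5%. In the wild type at +Pi, 67 members (41.6%) were higher in roots and 26 (16.1%) lower, against 11.6% and 11.7%.

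**Figure D2:**
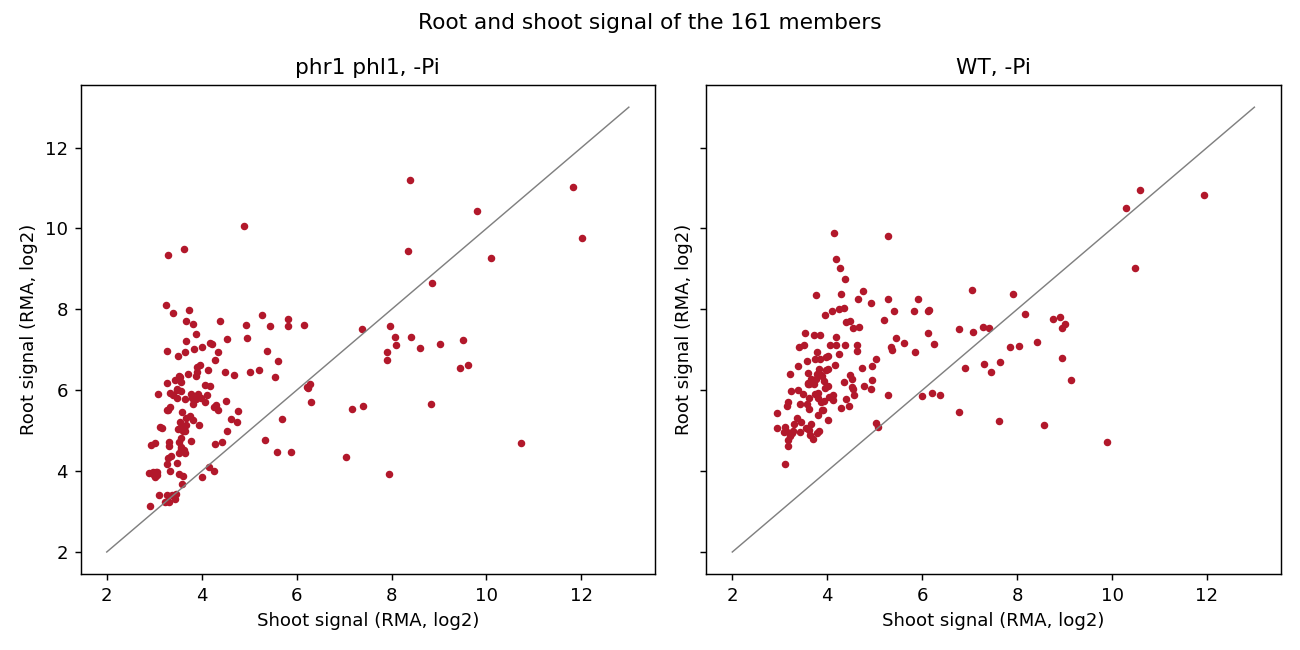
Mean shoot signal (horizontal axis) and mean root signal (vertical axis) of each of the 161 members, RMA log2, at -Pi in the arrays labelled phr1 phl1 (left) and in the wild type (right). The line marks equal signal; most points lie above it, with low shoot values, and a minority lie below it.

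In mutant roots at -Pi the members' median lay between those of the wild type groups, a place that the choice of members on the same wild type arrays sets in part. The members' median signal relative to wild type roots at +Pi was 0.52 in roots labelled phr1 phl1 and 0.82 in phr1 roots at -Pi, beside the 1.26 of the wild type at -Pi that the rule chose, and the median of all 22746 probe sets lay between -0.03 and -0.01 in the same comparisons. At -Pi, roots labelled phr1 phl1 exceeded wild type roots at +Pi in 38 members by more than 2-fold with an adjusted p below 0.05, against 3.54% of all probe sets, and phr1 roots did in 64, against 3.39%. Set against wild type roots at -Pi, 58 members were lower in roots labelled phr1 phl1, against 2.19% of all probe sets, and 28 were lower in phr1 roots, against 0.919%. These comparisons use the same wild type root arrays as the rule, which favours members that are high in the wild type at -Pi and low at +Pi, so the medians and counts describe the members and are not independent of their choice.

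**Figure D3:**
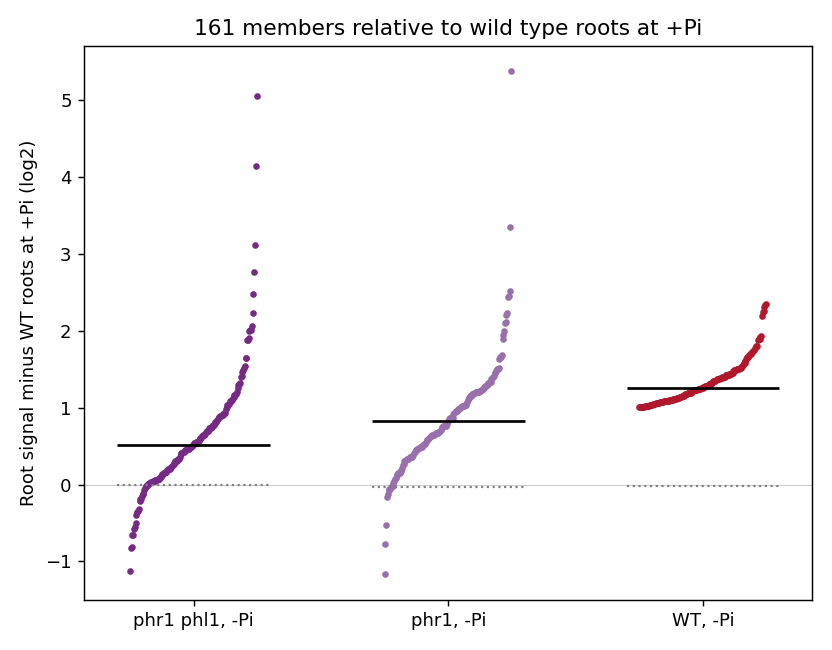
Root signal of each of the 161 members minus its mean in wild type roots at +Pi (log2), for roots labelled phr1 phl1, phr1 roots and wild type roots, all at -Pi, with members ordered by value within each column. Solid bars are the members' medians (0.52, 0.82 and 1.26) and dotted bars the medians of all probe sets, close to 0.

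The calls grouped the members in a few ways. Of the 161, 26 were lower in both mutants than in wild type roots at -Pi, 32 in roots labelled phr1 phl1 alone, 2 in phr1 roots alone and 101 in neither. Over all probe sets these shares were 0.862%, 1.33%, 0.0572% and 97.8%. Of the 58 that were lower in phr1 phl1, 57 were not called above wild type roots at +Pi, and of the 28 lower in phr1, 27 were not. Of all probe sets that were lower in phr1 phl1 or in phr1, 93.2% and 79.9% were not called above wild type roots at +Pi. A further 66 members (41.0%) were called in phr1 phl1 neither below the wild type at -Pi nor above it at +Pi, against 94.4% of all probe sets. Set against +Pi, 32 members were called above the wild type at +Pi in both mutants, 32 in phr1 alone, 6 in phr1 phl1 alone and 91 in neither, against 1.92%, 1.48%, 1.63% and 95.0% of all probe sets. A call in one mutant and not in the other does not show that the mutants differ, and their difference in roots is part of the rule.

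Among the 573 probe sets whose shoot difference was 0.5 or more, 263 (45.9%) were lower in phr1 phl1 roots than in the Pi-starved wild type and 126 (22.0%) in phr1 roots, with median differences of -0.996 and -0.513. Among the members these shares were 36.0% and 17.4%, with medians of -0.835 and -0.472. The sets were chosen on the same arrays, and only the members also had to have a phr1 phl1 minus phr1 root difference not below -1. That limit keeps out probe sets that fell further in phr1 phl1 roots, so the shares are not like for like. No test was made between the sets.

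In some members the mutant roots lay at or near the signal of Pi-sufficient wild type roots. AT1G15600, whose function the files do not give, had 3.94, 4.02 and 4.02 in roots labelled phr1 phl1, 3.96, 3.86 and 4.05 in phr1 roots, 5.90, 5.66 and 5.81 in wild type roots at -Pi and 4.05, 3.97 and 4.02 in wild type roots at +Pi. Every mutant array lay with the Pi-sufficient arrays and below the Pi-starved wild type arrays, with differences from those of -1.80 and -1.84 (standard error 0.11 each). AT5G60350 followed the same order, with differences from the wild type at -Pi of -1.76 in phr1 phl1 and -1.66 in phr1 (standard error 0.18 each). Its mean was 3.42 in roots labelled phr1 phl1, 3.51 in phr1 roots and 3.39 in wild type roots at +Pi, and 3.19 to 3.46 in the shoot groups. Signals this low may lie near the floor of the array, where equal values do not show how far expression fell. This was not tested. AT3G11370 had 3.80, 4.08 and 4.06 in roots labelled phr1 phl1 and 4.25, 4.41 and 4.67 in phr1 roots, against 5.66, 5.85 and 5.61 in wild type roots at -Pi and 3.81, 3.61 and 3.91 at +Pi. Its phr1 arrays lay above the Pi-sufficient wild type arrays and below the Pi-starved ones.

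Of the 15 members with the largest root rises 9 were named. All but AT1G64370 had means below wild type roots at -Pi in both mutants, the direction that the rule favours. AT1G64370 differed by 1.80 in phr1 phl1 and by -0.10 in phr1. AT2G43390 had 6.23, 5.89 and 5.91 in roots labelled phr1 phl1, 5.52, 5.81 and 6.07 in phr1 roots, 6.75, 6.77 and 6.82 in wild type roots at -Pi and 4.95, 4.32 and 4.52 in wild type roots at +Pi. Both mutants lay between the wild type groups without overlap, and both were called above the Pi-sufficient one. AT1G20030, a thaumatin-like protein of the kind secreted in defence, had 6.24, 6.10 and 6.09 in roots labelled phr1 phl1 and 6.15, 6.06 and 7.05 in phr1 roots, against 7.64, 7.53 and 7.46 in wild type roots at -Pi and 5.77, 5.83 and 5.41 at +Pi. AT4G22640 differed from the wild type at -Pi by -1.19 in phr1 phl1 and by -0.61 in phr1, of which the first was called. The others of the 9 are XTH26, AT3G11370, AT4G09760, AT5G60350, AT1G15600 and AT1G64370, which are described with their groups.

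The lowest member in the mutants relative to the wild type was AT3G32030, known as a terpene synthase, an enzyme class that builds terpenoid compounds. Its signal was 4.41, 3.76 and 3.83 in roots labelled phr1 phl1, 4.30, 4.18 and 3.36 in phr1 roots, 6.76, 6.21 and 6.86 in wild type roots at -Pi and 5.89, 3.94 and 5.52 in wild type roots at +Pi. The differences from the wild type at -Pi were -2.61 and -2.66 (standard error 0.35 each), and from the wild type at +Pi -1.12 and -1.17 (limma, adjusted p = 0.038 and 0.033). It was the 1 member called below Pi-sufficient wild type roots, in phr1 phl1 and in phr1 alike, against 1.75% and 1.49% of all probe sets, and 1 of its Pi-sufficient arrays lay within the range of the mutants. Its probe set carries the array's mark for a shared sequence, so related genes may contribute to the signal.

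**Figure D4:**
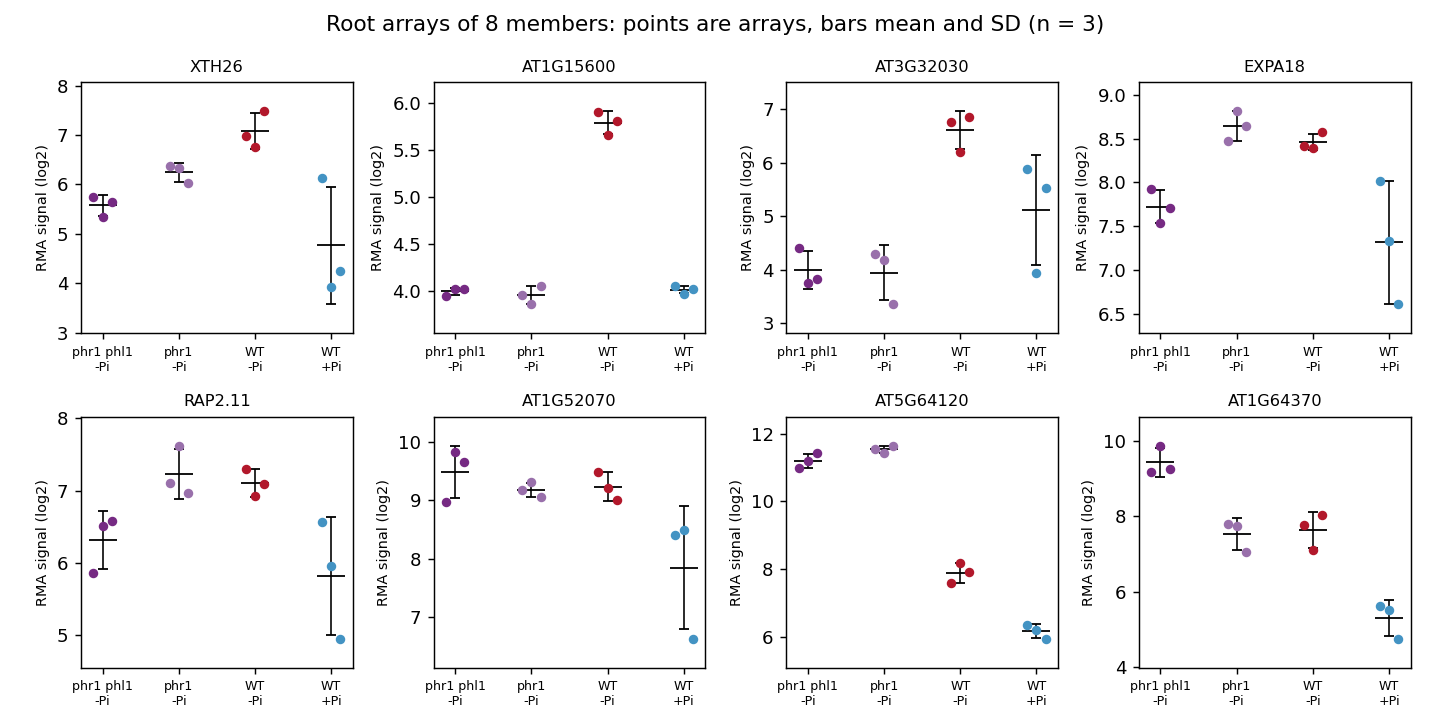
RMA signal (log2) of 8 members in the root arrays, with a point for each array and the mean and SD (n = 3) as bars, in the order phr1 phl1 at -Pi, phr1 at -Pi, wild type at -Pi and wild type at +Pi. AT1G15600 and AT3G32030 were low in both mutants, EXPA18 and RAP2.11 overlapped the wild type at -Pi in phr1 and lay below it in phr1 phl1, AT1G52070 overlapped it in both mutants, and AT5G64120 was above all wild type arrays in both.

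The largest group by role was of genes that build, trim or loosen the cell wall. The role groups were made after the values were seen, and 47 of the 82 named genes were placed in one, so counts of calls within a group are set beside the shares over all 161 members and nothing particular to a group is read from them. The 8 cell wall genes had root rises of 1.03 to 2.31, and all 8 were higher in roots than in shoots in the arrays labelled phr1 phl1, beside 59.6% of all members. XTH26, a xyloglucan endotransglucosylase that cuts and rejoins wall polymers, had 5.75, 5.33 and 5.64 in roots labelled phr1 phl1, 6.38, 6.33 and 6.02 in phr1 roots, 6.98, 6.77 and 7.48 in wild type roots at -Pi and 6.12, 3.93 and 4.24 in wild type roots at +Pi. Both mutants lay below all Pi-starved wild type arrays, but 1 of the Pi-sufficient arrays was as high as the mutants. Its difference from the wild type at -Pi was -1.50 in phr1 phl1 (standard error 0.35) and -0.83 in phr1.

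EXPA18, an expansin of root hairs, had 7.92, 7.54 and 7.71 in roots labelled phr1 phl1, 8.47, 8.81 and 8.65 in phr1 roots, 8.42, 8.40 and 8.57 in wild type roots at -Pi and 8.02, 7.33 and 6.61 in wild type roots at +Pi. The phr1 arrays overlapped the Pi-starved wild type arrays, and the phr1 phl1 arrays lay below them and within the Pi-sufficient range. GH9C1, an endoglucanase that acts on wall glucans, showed the same order, with 7.91, 7.99 and 8.04 in roots labelled phr1 phl1, 8.49, 8.61 and 8.74 in phr1 roots, 8.82, 8.67 and 8.73 in wild type roots at -Pi and 8.12, 7.54 and 6.87 at +Pi. Of the cell wall genes, 6 were called above Pi-sufficient wild type roots in phr1 and 2 in phr1 phl1, beside 39.8% and 23.6% of all members and 3.39% and 3.54% of all probe sets, while XTH26 was the 1 called lower than the wild type at -Pi, in phr1 phl1. CSLC12, of the family that makes the xyloglucan backbone, stood at -0.80 in phr1 phl1 (standard error 0.16), below the 2-fold limit.

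The 7 protein kinases, 4 of them of the leucine-rich repeat receptor type, had root rises of 1.02 to 1.61. AT5G65500 had 3.45, 3.28 and 3.58 in roots labelled phr1 phl1 and 3.68, 3.58 and 3.34 in phr1 roots, against 4.90, 4.55 and 5.50 in wild type roots at -Pi and 3.497, 3.42 and 3.22 at +Pi. AT4G20450, a receptor kinase, differed from the wild type at -Pi by -1.44 in phr1 phl1 and by -0.99 in phr1 (standard error 0.14 each). Of the 7, 4 were lower in phr1 phl1 and 1 in phr1, beside 36.0% and 17.4% of all members and 2.19% and 0.919% of all probe sets. The differences in phr1 phl1 ran from -1.55 to -0.40.

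Regulators of transcription and signalling made up a small part. RAP2.11, an AP2 factor of the response to low potassium, had 5.86, 6.51 and 6.58 in roots labelled phr1 phl1, 7.11, 7.62 and 6.97 in phr1 roots, 7.30, 6.92 and 7.10 in wild type roots at -Pi and 6.56, 5.95 and 4.95 in wild type roots at +Pi. Its phr1 arrays overlapped the Pi-starved wild type arrays, and its phr1 phl1 arrays overlapped the Pi-sufficient ones. CBL6, a calcium sensor of the calcineurin B-like family, had 5.95, 4.93 and 4.77 in roots labelled phr1 phl1 and 6.18, 6.08 and 6.13 in phr1 roots, against 5.998, 6.14 and 6.31 in wild type roots at -Pi and 5.67, 4.75 and 5.02 at +Pi. MYB54, a MYB factor, differed from the wild type at -Pi by -1.06 in phr1 phl1 and by -0.84 in phr1 (standard error 0.13 each), and only the first passed the 2-fold limit. AT2G33710, of the ERF family of AP2 factors, stood at -0.47 and 0.25. IAA18, an auxin response repressor, had 6.69 to 7.14 in roots labelled phr1 phl1, 6.53 to 6.73 in phr1 roots and 6.89 to 7.27 in wild type roots at -Pi, against 5.74 to 6.08 at +Pi, and 7.10 to 8.26 in the shoot arrays.

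The calcium, peptide and ubiquitin genes are CBL6, the EF-hand protein AT1G29020, the peptide hormone gene RALFL27 and the ubiquitin ligase PUB22. All 4 were higher in roots than in shoots in the arrays labelled phr1 phl1. Over all members this share was 59.6%, and over all probe sets 12.5%. AT1G29020 had 5.90, 6.17 and 6.24 in roots labelled phr1 phl1 and 6.25, 6.79 and 7.13 in phr1 roots, against 7.56, 7.88 and 7.67 in wild type roots at -Pi and 6.72, 6.81 and 6.52 at +Pi. Its phr1 phl1 arrays lay below all wild type root arrays, with a difference from -Pi of -1.60 (standard error 0.22). RALFL27 had 7.20, 7.09 and 7.54 in roots labelled phr1 phl1 and 7.62, 7.46 and 8.16 in phr1 roots, against 7.60, 7.69 and 7.36 in wild type roots at -Pi and 6.85, 5.94 and 6.69 at +Pi, so that all arrays at -Pi lay above those at +Pi.

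Lists of genes for known responses held few members. Of 24 root hair growth genes, 4 were measured, and EXPA18 is a member, so that its rise was set by the rule. EXPA7, PIP5K3 and SCN1 had root differences of 0.69, 0.96 and 0.56, below the limit of the rule. None of the 4 measured genes of Pi transport and signalling was a member, nor was the 1 measured gene of membrane lipid remodelling, nor any of the 3 measured iron genes, whose root differences lay between -4.57 and -1.28. In the potassium list RAP2.11 and CBL6 were entered after they had been seen as members, as IAA18 was in the auxin list, so they, like EXPA18, say nothing about those lists. The counts rest on the genes that could be matched to a probe set, which is a minority in each list.

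Among the members were 2 pairs of neighbouring genes. AT1G52060 and AT1G52070, jacalin-related lectins that lie next to each other on chromosome 1, were bright in roots and dim in shoots. AT1G52070 had 8.98, 9.82 and 9.65 in roots labelled phr1 phl1, 9.17, 9.31 and 9.06 in phr1 roots, 9.49, 9.21 and 9.001 in wild type roots at -Pi and 8.41, 8.49 and 6.63 in wild type roots at +Pi, and 3.51 to 4.81 in all shoot arrays. The mutant arrays overlapped the Pi-starved wild type arrays and all lay above the Pi-sufficient ones. At +Pi, replicate 3 (6.63) lay far below the other arrays (8.41 and 8.49). The size of the AT1G52070 rise therefore rests in part on that array, and without it the rise would fall below the limit of the rule. The same holds for AT1G52060, EXPA18, GH9C1, RAP2.11 and CBL6, among other members. RAP2.11 and AT5G19800, a hydroxyproline-rich glycoprotein gene, are neighbours on chromosome 5 in the TAIR10.1 annotation. The named members fell on all 5 chromosomes, with 25, 7, 12, 17 and 21 genes on chromosomes 1 to 5.

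A few members were higher in mutant roots than in Pi-starved wild type roots, the direction that the rule does not favour. AT5G64120 (PRX71), a class III peroxidase that acts in the cell wall, had 11.003, 11.20 and 11.42 in roots labelled phr1 phl1, 11.54, 11.43 and 11.64 in phr1 roots, 7.58, 8.17 and 7.91 in wild type roots at -Pi and 6.35, 6.19 and 5.94 in wild type roots at +Pi. The mutants did not overlap the wild type, and the differences from the wild type at -Pi were 3.32 in phr1 phl1 and 3.65 in phr1 (standard error 0.22 each, adjusted p = 1.3e-09 and 1.6e-09 from limma), against 3.45% and 1.49% of all probe sets called higher in these comparisons. AT4G04990, whose role is not given here, had 6.91, 7.18 and 6.96 in roots labelled phr1 phl1 and 7.00, 7.16 and 7.61 in phr1 roots, against 4.83, 4.89 and 5.11 in wild type roots at -Pi and 4.26, 3.55 and 3.90 at +Pi. The other calls of this kind were AT5G24570 and an unmatched member in phr1, and AT1G64370 and an unmatched member in phr1 phl1, which makes 4 members in each mutant.

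AT1G64370, a gene with a high shoot signal whose role is not given here, had 9.19, 9.87 and 9.24 in roots labelled phr1 phl1, 7.81, 7.75 and 7.04 in phr1 roots, 7.76, 7.10 and 8.03 in wild type roots at -Pi and 5.61, 5.53 and 4.75 in wild type roots at +Pi. Its shoot signal was 7.65 to 8.77 in phr1 phl1 and 6.88 to 8.23 in phr1, against 8.07 to 9.67 in the wild type at -Pi and 8.92 to 9.01 at +Pi. The difference in roots labelled phr1 phl1 from the wild type at -Pi was 1.80 (standard error 0.41, adjusted p = 0.0043 from limma). Of the 793 probe sets that exceeded roots by more than 3 in wild type shoots at +Pi, 250 were called higher than the wild type at -Pi in roots labelled phr1 phl1, with a median of 0.66, and 29 in phr1 roots, with a median of 0.10, and RCA differed from the same wild type roots by 1.84 and 0.40. The share of leaf RNA in these values was not tested. Among the 8 members in that set, the median difference in roots labelled phr1 phl1 was -0.15, with 1 called higher and 1 lower. FDH, the mitochondrial formate dehydrogenase, stood at 0.48. The rule chose these 8 for a high signal in the same wild type roots at -Pi, which favours lower differences. Their median is therefore not like for like with that of the 793.

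AT1G67870 and AT1G53560 were also bright in shoots and highest of the root groups in the arrays labelled phr1 phl1. AT1G67870 had 9.04, 8.84 and 8.08 there and 7.71, 7.83 and 6.89 in phr1 roots, against 7.79, 7.64 and 7.97 in wild type roots at -Pi and 6.97, 6.47 and 6.90 at +Pi. AT1G53560 had 7.70, 7.55 and 7.48 in roots labelled phr1 phl1 and 6.83, 7.00 and 7.24 in phr1 roots, against 6.61, 6.95 and 6.55 in wild type roots at -Pi and 5.54, 5.84 and 5.32 at +Pi. In both genes the phr1 phl1 root arrays lay above every other root array, but neither difference from the wild type at -Pi, 0.85 and 0.87, passed 2-fold. AT5G24570 had 7.27, 6.64 and 7.43 in roots labelled phr1 phl1 and 7.56, 7.61 and 7.38 in phr1 roots, against 6.46, 6.30 and 6.60 in wild type roots at -Pi and 5.21, 5.33 and 4.63 at +Pi, and its difference of 1.07 in phr1 was the 1 of the 2 that was called (adjusted p = 0.017 from limma).

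FDH had 6.52, 6.79 and 6.90 in roots labelled phr1 phl1, 5.77, 5.55 and 5.57 in phr1 roots, 6.35, 6.15 and 6.28 in wild type roots at -Pi and 4.70, 4.41 and 4.42 in wild type roots at +Pi, so that all 9 arrays at -Pi lay above those at +Pi. GAMMA-VPE, a vacuolar processing protease, was among the brightest members at 10.32 to 10.51 in roots labelled phr1 phl1, 10.12 to 10.38 in phr1 roots and 10.40 to 10.60 in wild type roots at -Pi, against 9.07 to 9.48 at +Pi, with shoot values of 9.596 to 10.61. GSTU28, a glutathione transferase of the detoxification family, differed from the wild type at -Pi by -1.09 in phr1 phl1 and -0.72 in phr1 (standard error 0.24 each). AT4G09760, a choline kinase of phospholipid synthesis, differed from the wild type at -Pi by -1.38 in phr1 phl1 (standard error 0.28), where it was called lower, and by -0.92 in phr1.

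The 3 cytochrome P450 genes, CYP71B23, CYP71B28 and AT1G73340, had differences of 0.43, 0.23 and -0.72 in phr1 phl1 and of 0.54, 0.13 and -0.58 in phr1, none past 2-fold. The 3 CAP domain genes, of the PR-1 family of secreted proteins, were AT1G50060, AT4G30320 and AT4G33730, with -0.45, -0.90 and -0.50 in phr1 phl1. All 3 were higher in roots than in shoots in those arrays, beside 59.6% of all members and 12.5% of all probe sets. Of the 2 transporters in a role group, the peptide and nitrate family member AT5G46040 and the sugar transporter AT3G20460, both were called lower in phr1 phl1, with differences of -1.01 and -1.11, and AT5G46040 also in phr1, with -1.24, beside 36.0% and 17.4% of all members and 2.19% and 0.919% of all probe sets called lower.

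In shoots the rule kept members with a wild type Pi-starvation change below 0.5, and their median change was 0.17. There the mutants could be set against each other with arrays that the rule did not use. At -Pi, 0 members were called different between shoots labelled phr1 phl1 and phr1 shoots in limma, against 0.769% of all probe sets, and 16 (9.94%) had an unadjusted p under 0.05, against 10.7% of all probe sets. The members' differences ran from -1.05 to 0.88, with a median of -0.06, where the median of all probe sets was 0.01. With so small a share over all probe sets, 0 calls is not read as a trait of the members. Among the 573 probe sets with a wild type shoot difference of 0.5 or more, the median was -0.35. Of these, 53 (9.25%) were lower in phr1 phl1 than in phr1 shoots, against 0.563% of all probe sets. They were chosen for a shoot rise and the members against one, so the contrast between them follows in part from the choice. The effect against the wild type at -Pi differed between roots and shoots, by limma's interaction term, in 48 members for phr1 phl1 and in 25 for phr1, against 13.8% and 11.4% of all probe sets, in a comparison that again includes the wild type root arrays of the rule.

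Set against wild type shoots at -Pi, which the rule did use, 12 members were lower in phr1 phl1 shoots, against 8.2% of all probe sets, and 4 were higher, against 8.24%. In phr1 shoots 9 were lower, against 6.63%, and 1 was higher, against 6.48%. The member that was higher in both was AT2G37540, with 9.59, 9.72 and 9.51 in phr1 phl1 shoots and 9.21, 8.97 and 9.04 in phr1 shoots, against 7.14, 7.20 and 6.36 in wild type shoots at -Pi and 7.07, 7.22 and 7.18 at +Pi. Both mutants lay above all wild type shoot arrays, by 2.71 and 2.18 against -Pi (standard error 0.31 each, adjusted p = 8.2e-07 and 1.6e-05 from limma). In 4 members the wild type shoot difference was below -1, among them AT1G09750, an aspartic protease, at 8.96, 9.18 and 8.73 at -Pi and 10.96, 10.57 and 10.66 at +Pi.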

How the data were processed

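The authors made the deposited log2 signals with RMA in affylmGUI (background correction, between-array normalization, 1 value per probe set), so signals are comparable between arrays and not between genes. From 24 arrays in 8 groups of 3 independent samples, grouped by title, the 22746 probe sets that remain without 64 controls were fitted with 8 group means in limma 3.58.1 in R 4.3.3. Each p is limma's, Benjamini-Hochberg adjusted over all probe sets, and a call needs a 2-fold difference and an adjusted p below 0.05. Probe sets were named from the platform table (13513 to 1 gene, 503 to several) and 647 more from the study's supplementary tables, with names in the RefSeq TAIR10.1 annotation. The members and lists were chosen with earlier results of these data known. Genes were named by list, by size of change, by family and at the limits of the rule, and others, taken for their role, after their values were seen. The number of arrays limits the precision.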

Additional observations from a re-analysis of the deposited data

Results flagged for a closer look

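For 25 of the members the phr1 effect against the wild type at -Pi differed between roots and shoots, by the interaction term in limma (over 2-fold, adjusted p below 0.05), and for 48 members the phr1 phl1 effect did. The wild type root arrays at -Pi also chose the members, which favours such a difference in one direction. Against all probe sets the shares called are 11.4% and 13.8% for the 2 terms. The named members with the widest gaps were AT5G64120, whose phr1 effect in roots exceeded that in shoots by 2.84 and whose phr1 phl1 effect by 3.11 (log2), AT3G32030, with a phr1 gap of -2.56, and AT2G37540, with a phr1 phl1 gap of -2.63. For AT5G64120 the 6 mutant root arrays lay at 11.003 to 11.64 and the 3 wild type ones at -Pi at 7.58 to 8.17, while its mutant shoots were at 8.31 to 9.36 and wild type shoots at -Pi at 7.63 to 8.53. For AT2G37540 the gap came from the shoots.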

How the results depend on the processing

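Requiring a root rise above 1.5 left 37 members, a shoot change below 0 left 35, and 1 probe set per matched gene left 79. At 1.5-fold with adjusted p under 0.1, and at adjusted p under 0.05 with no fold limit, 59 and 52 members were lower in phr1, 93 and 91 lower in phr1 phl1, 97 and 98 higher in phr1 than in wild type roots at +Pi, 65 and 60 higher in phr1 phl1, and 1 and 1 changed between the mutants' shoots. Leaving out 1 array at a time gave 131 to 193 members of the rule. The low end came without replicate 3 of wild type roots at +Pi, and the high end without replicate 1. Without replicate 3, 122 of the 161 members remained, and without replicate 1, 160 did. Members lower than the wild type at -Pi ran from 23 to 31 in phr1 and from 51 to 61 in phr1 phl1. Members higher than the wild type at +Pi ran from 43 to 72 in phr1 and from 31 to 49 in phr1 phl1. The same arrays set the ends of both. Fitting only the 2 groups compared gave 52 such members in phr1 and 30 in phr1 phl1. The main fit shares 1 estimate of the spread over all groups, and wild type roots at +Pi were the most spread of the root groups. Between the mutants' shoots the count was 0 to 1 (1 without phr1 Shoot-Pi replicate 2), and 94 to 97 were higher in roots than shoots. Correlations between same-numbered arrays of the groups compared ran from -0.59 to 0.56. Of the 24 arrays, 14 correlated best with their own number, more than unrelated numbering would give on average. The paper states that its replicates were collected over a period of months, and the labels give no dates. With the replicate number as a block the counts were 28, 58, 64, 38, 0 and 96, as without it. A batch that does not follow the replicate numbers would not be removed by this block, and was not tested. Centring the arrays and quantile normalization gave 163 and 162 members of the rule.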
